A study of Homo sapiens with 6 samples.

Results

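The 8 genes FDCSP, TENM2, SOX11, ZFPM2, HBE1, ELAVL2, MFAP2 and KRT14 stood out in A2058 melanoma cells because their transcripts read far lower in a line overexpressing wild-type TET2 than in the other lines. They were picked from the array values themselves: each was lower in TET2WT than in TET2M and in Mock at both glucose concentrations. The choice set them apart from the inflammatory genes that read lower in the same line. Outside the 8, however, FDCSP was closest in pattern to the chemokine genes CXCL1 and CXCL2. The chosen genes are 8 of the 14428 genes that could be compared, and 12 of 41091 probe sets that name a single gene belong to them.

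A2058 is an established human melanoma cell line. The groups were cells overexpressing TET2WT, cells overexpressing TET2M (the construct called Mut in another label) and mock cells, each cultured at 4.5 g/L (high) and at 1 g/L (normal) glucose for 7 days. Every one of the 6 combinations had a single array and therefore no replicate. The sources used here do not say what distinguishes the TET2M construct, or whether a line is a single clone or a pool. The melanocyte lineage gene SOX10 read between 9.38 and 9.65 and MITF between 6.30 and 6.96 on the log2 scale over the 6 arrays, and 11 of the 15 measured genes of the melanocyte and melanoma marker list were above the low-value level on all 6. The pigment genes TYR, TYRP1 and MLANA were below it on all 6, while the pigment gene PMEL read 3.55 to 4.20. That level, 2.64, is the 40th percentile of the probe set means. It lies below the median of every array (2.96 to 3.03), so a value above it need not mean expression. TET2 itself read 9.54 (high glucose) and 9.68 (normal glucose) in TET2WT, 7.57 and 7.37 in TET2M, and 3.81 and 4.13 in Mock in its brightest probe set. Another of its 3 probe sets also differed between the lines, at 6.64 and 6.87 in TET2WT, 4.57 and 3.89 in TET2M, and 2.10 and 2.64 in Mock, whereas the remaining one read 5.30 and 5.15 in TET2WT, 5.41 and 5.31 in TET2M, and 5.23 and 5.22 in Mock.

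TET2 oxidises methylated cytosine, mostly at CpG sites, a step towards removing the methyl group. The 8 genes encode secreted and matrix proteins (FDCSP, MFAP2), a cell adhesion receptor (TENM2), regulators of transcription (SOX11, ZFPM2), an RNA-binding protein (ELAVL2), a keratin (KRT14) and an embryonic globin (HBE1). Several belong to neural, cardiac, epithelial or erythroid programmes and not to the melanocyte lineage. They lie on 8 different chromosomes.

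All 8 genes read at least 2-fold lower in TET2WT than in TET2M and Mock at both concentrations, which 33 of the 14428 genes did (0.229%). At 4-fold the count was 5 of the 8, among 6 of all genes (0.0416%). With values under the low-value level raised to it, the 4-fold count was 3 of the 8, FDCSP, SOX11 and TENM2, among 4 of all genes, and the 2-fold count was again 8, among 32. The choice of the genes fixed these counts, and nothing is drawn from them. The rule gave no numerical limit. By the smallest of its 4 falls KRT14 was the last of the 8, at -1.67 on the log2 scale (3.18-fold), and stood 13th of all genes, followed by the chemokine gene CXCL2 at -1.62 and the cancer-testis gene SSX1 at -1.56. FDCSP stood 1st at -3.47 (11.1-fold), or at -3.06 (8.33-fold) with its TET2WT values raised to 2.64. Raised in the same way, TENM2 stood 3rd, ELAVL2 8th and ZFPM2 9th. IGFBP3, LOC105371703 and PTX3, which are not among the 8, lay between at -1.91, -1.87 and -1.85.

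**Figure D1:**
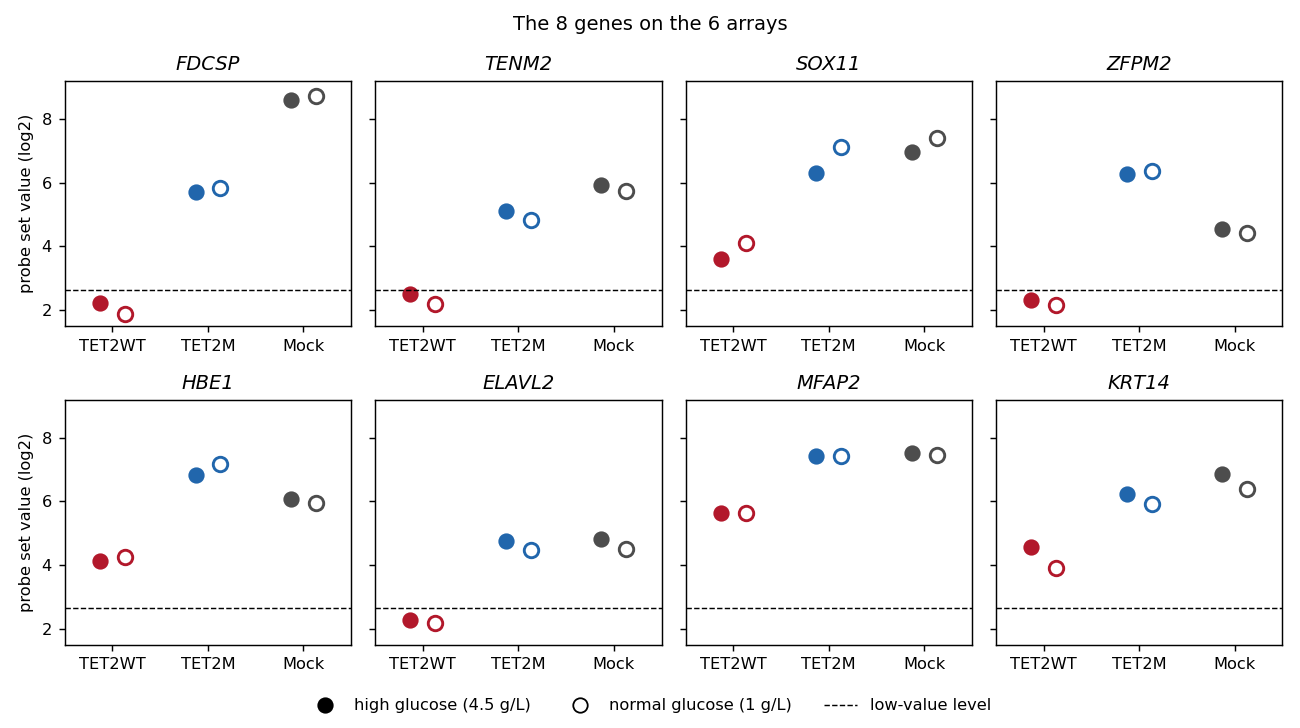
Log2 probe set value of each of the 8 genes (vertical axis) in TET2WT, TET2M and Mock (horizontal axis), 1 point per array, filled for high and open for normal glucose; the dashed line is the low-value level of 2.64. FDCSP, TENM2, ZFPM2 and ELAVL2 lie under that line on both TET2WT arrays, and TET2M lies between the other lines for FDCSP but above both for ZFPM2 and HBE1.

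FDCSP encodes a small peptide secreted by follicular dendritic cells of lymphoid tissue and by some epithelia. Its 1 probe set read 2.23 (high glucose) and 1.88 (normal glucose) in TET2WT, 5.70 and 5.84 in TET2M, and 8.59 and 8.74 in Mock. No line overlapped another: TET2WT was under the low-value level on both arrays, TET2M lay in the middle and Mock was highest. The difference from Mock was -6.36 (high glucose) and -6.86 (normal glucose) in TET2WT, and -2.89 and -2.90 in TET2M. Since the TET2WT values lie in the background range, raising them to 2.64 gave a mean difference from Mock of -6.02 in place of -6.61. In bulk RNA, fewer cells that express a gene and less RNA per cell cannot be told apart, here and for all 8 genes. Of the 11 measured follicular dendritic and B cell markers 6 were below the low-value level on all 6 arrays, CR2 and CXCL13 among them. The other 5, FCER2, CD79A, CD79B, CLU and BLK, were above it on all 6, with low values between 2.72 and 3.85.

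MFAP2 (also called MAGP1) encodes a glycoprotein of the microfibrils that carry elastic fibres and bind fibrillin. It read 5.64 on both TET2WT arrays, 7.41 (high glucose) and 7.43 (normal glucose) in TET2M, and 7.53 and 7.47 in Mock. TET2M and Mock were close to each other and TET2WT was lower than both on every array, with differences between -1.89 and -1.77 on the log2 scale. Both of its start sites in the RefSeq promoter table (GRCh38.p14) are shown by the 250 bases before them, with each CpG, the dinucleotide on which TET2 acts when methylated, in capitals. No DNA methylation was measured here.
MFAP2, first start site, chr1:16981584-16981833, minus strand: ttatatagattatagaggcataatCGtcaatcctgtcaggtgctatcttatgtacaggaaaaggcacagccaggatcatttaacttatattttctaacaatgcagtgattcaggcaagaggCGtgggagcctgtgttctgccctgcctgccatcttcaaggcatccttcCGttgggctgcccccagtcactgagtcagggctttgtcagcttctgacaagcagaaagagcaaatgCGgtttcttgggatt
MFAP2, second start site, chr1:16980621-16980870, minus strand: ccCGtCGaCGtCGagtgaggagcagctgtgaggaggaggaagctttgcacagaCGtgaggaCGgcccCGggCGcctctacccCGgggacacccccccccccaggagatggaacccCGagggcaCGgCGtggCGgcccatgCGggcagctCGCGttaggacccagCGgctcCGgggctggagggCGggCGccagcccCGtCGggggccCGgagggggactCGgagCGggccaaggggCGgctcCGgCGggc
The first window holds 4 CpG and the second 28. Over the 35116 promoters of the table the median was 11, 29.3% had fewer than 4 and 84.1% fewer than 28.

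TENM2 encodes teneurin 2, a transmembrane protein that binds latrophilins across cell contacts and is known for its part at synapses. It read 2.50 (high glucose) and 2.20 (normal glucose) in TET2WT, 5.11 and 4.83 in TET2M, and 5.92 and 5.74 in Mock. Again the lines did not overlap, with TET2WT under the low-value level and TET2M below Mock. With low values raised to 2.64 the mean difference between TET2WT and Mock was -3.19 instead of -3.48. Its start sites differ from the second one of MFAP2 in having few CpG.
TENM2, first start site, chr5:167072992-167073241, plus strand: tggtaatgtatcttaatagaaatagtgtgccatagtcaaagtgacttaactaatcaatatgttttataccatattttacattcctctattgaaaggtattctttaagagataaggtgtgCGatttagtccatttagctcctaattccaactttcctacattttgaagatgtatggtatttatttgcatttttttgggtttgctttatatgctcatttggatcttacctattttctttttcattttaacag
TENM2, second start site, chr5:167754679-167754928, plus strand: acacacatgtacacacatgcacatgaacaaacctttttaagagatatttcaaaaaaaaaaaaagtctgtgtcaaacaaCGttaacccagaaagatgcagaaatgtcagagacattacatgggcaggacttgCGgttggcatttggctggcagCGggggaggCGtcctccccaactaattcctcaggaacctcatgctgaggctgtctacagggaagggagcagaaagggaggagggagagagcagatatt
The first TENM2 window holds 1 CpG, with fewer in 6.06% of all promoters, and the second holds 4.

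SOX11 encodes a transcription factor of the SOXC group, active in neural progenitors and in the developing nervous system. Its brightest probe set read 3.61 (high glucose) and 4.11 (normal glucose) in TET2WT, 6.30 and 7.13 in TET2M, and 6.98 and 7.41 in Mock. TET2WT was lowest, while the ranges of TET2M and Mock overlapped. All 3 SOX11 probe sets are of the kind whose probes can match several transcripts, and the other two gave the same order. They read between 2.88 and 4.01 in TET2WT, between 5.93 and 6.79 in TET2M and between 6.78 and 7.22 in Mock.

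ZFPM2 encodes FOG2, a zinc finger cofactor of GATA4 in heart and gonad development. It read 2.31 (high glucose) and 2.16 (normal glucose) in TET2WT, 6.28 and 6.37 in TET2M, and 4.54 and 4.43 in Mock. Its order differed from that of FDCSP: TET2M was highest and Mock lay in the middle. At high and normal glucose TET2WT differed by -3.97 and -4.21 from TET2M and by -2.23 and -2.27 from Mock on the log2 scale. Both TET2WT values lie under the low-value level, and with them raised to 2.64 the differences were -3.64 and -3.73 from TET2M and -1.90 and -1.79 from Mock.

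ELAVL2 encodes HuB, a neuronal RNA-binding protein of AU-rich elements. Its brighter probe set read 2.28 (high glucose) and 2.17 (normal glucose) in TET2WT, 4.74 and 4.48 in TET2M, and 4.81 and 4.50 in Mock. TET2M and Mock overlapped and TET2WT was under the low-value level. The other ELAVL2 probe set was below that level on all 6 arrays, at 2.04 and 2.13 in TET2WT, 2.38 and 2.56 in TET2M, and 2.57 and 2.61 in Mock. Among the 6 ELAVL2 start sites in the table, the window of the most upstream is shown.
ELAVL2, first start site, chr9:23826241-23826490, minus strand: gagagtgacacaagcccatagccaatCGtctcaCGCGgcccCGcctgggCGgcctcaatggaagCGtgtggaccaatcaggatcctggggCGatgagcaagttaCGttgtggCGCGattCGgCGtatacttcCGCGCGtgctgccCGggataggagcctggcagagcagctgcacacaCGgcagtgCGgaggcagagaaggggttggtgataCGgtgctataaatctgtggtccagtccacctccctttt
It holds 19 CpG, with fewer in 65.4% of all promoters, and the 6 ELAVL2 windows hold between 9 and 33.

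KRT14 encodes the type I keratin that pairs with keratin 5 in basal keratinocytes. It read 4.55 (high glucose) and 3.89 (normal glucose) in TET2WT, 6.22 and 5.91 in TET2M, and 6.86 and 6.38 in Mock. All TET2WT values were lower than those of the other lines and no line overlapped another. Keratin genes resemble each other in sequence, and whether related keratins add to this probe set was not tested. KRT5, the partner keratin, read 3.27 and 2.67 in TET2WT, 3.54 and 2.76 in TET2M, and 2.81 and 3.02 in Mock.

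HBE1 encodes the epsilon globin chain of embryonic haemoglobin, a gene normally silent after the yolk sac stage. Its brighter probe set read 4.13 (high glucose) and 4.24 (normal glucose) in TET2WT, 6.84 and 7.16 in TET2M, and 6.06 and 5.95 in Mock. As for ZFPM2, TET2M was highest and the lines did not overlap. The other HBE1 probe set stayed below the low-value level on all 6 arrays, between 2.07 and 2.48, and showed no such order. Of 10 measured erythroid markers 3 were below that level on all 6 arrays, EPB42, KLF1 and HEMGN, and 5 were above it on all 6, the highest being HBB. The highest value of any of them was 4.05, and the summed linear level of the 10 measured erythroid markers was 72.1 to 84.8 in TET2WT, 75.9 to 76.8 in TET2M and 69.7 to 78.9 in Mock.

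The difference between TET2M and Mock was not itself the rule of choice, though both lines had to lie above TET2WT on these same arrays. It was tested with limma over all genes, with glucose as a term. Of the 8 genes 2 passed at an adjusted p under 0.05, FDCSP lower and ZFPM2 higher. Of all genes tested 14 passed (0.097%), 10 lower (0.0693%) and 4 higher (0.0277%). Both FDCSP and ZFPM2 lie under the low-value level in TET2WT and passed the filter through their TET2M and Mock values. The count of 2 is thus not independent of the choice. FDCSP fell by 2.90 ± 0.14 in TET2M against Mock (± SE; adjusted p = 0.00307, limma), a 7.44-fold lower level, and was lower at 2 of 2 concentrations. ZFPM2 rose by 1.84 ± 0.10 (adjusted p = 0.00423, limma), a 3.58-fold higher level, also at 2 of 2 concentrations. FDCSP was thus lower in both overexpressing lines, while ZFPM2 was lower in TET2WT and higher in TET2M. The other 9 genes that passed lower in TET2M were CXCL1, CXCL2, CXCL3, CXCL8, CCL2, LCN2, PTX3, TNFAIP3 and LINC01419, named after their values were seen, of which all but the last are known as inflammatory genes.

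HBE1 had a positive difference between TET2M and Mock of 0.99 ± 0.12 that did not pass (adjusted p = 0.0988, limma). TENM2 had a negative one of -0.86 ± 0.089 (adjusted p = 0.0589, limma). KRT14 was at -0.56 ± 0.11 and SOX11 at -0.48 ± 0.12, with adjusted p of 0.299 and 0.375 in limma. MFAP2, at -0.080 with a 95% interval from -0.29 to 0.13, and ELAVL2, at -0.045 with one from -0.28 to 0.19, had the smallest differences. The median of the 8 differences was -0.28, against -0.020 over all genes. The comparisons of TET2WT and TET2M with Mock share the Mock arrays. With any array left out, or without the TET2WT arrays, 0 of the 8 genes passed at 1 residual degree of freedom. FDCSP then lay between -3.02 and -2.77 and ZFPM2 between 1.73 and 1.95.

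**Figure D2:**
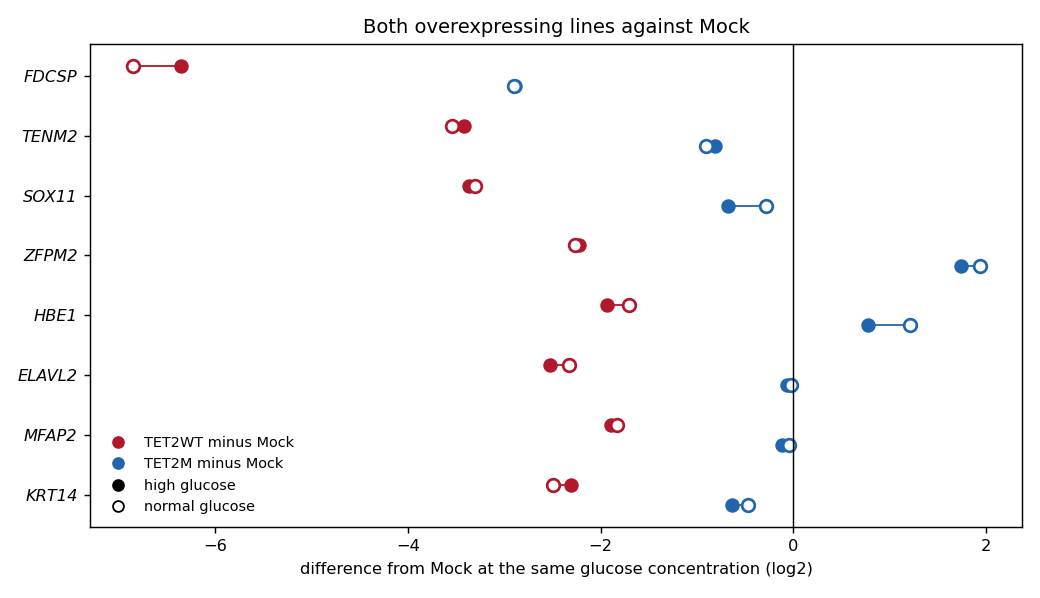
Log2 difference from Mock at the same glucose concentration (horizontal axis) for each of the 8 genes, TET2WT in red and TET2M in blue, filled points for high and open for normal glucose. TET2WT lies at or below -1.71 for every gene, whereas TET2M runs from -2.90 for FDCSP to 1.94 for ZFPM2.

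The rule of choice did not compare the glucose concentrations, though it used the values at both. With the line as a term, 0 of the 8 genes passed in limma between high and normal glucose, and 4 had an unadjusted p under 0.05. Over all genes 1 passed (0.00693%) and 15.4% had an unadjusted p under 0.05. SOX11 had the most negative difference of the 8, -0.50 in TET2WT, -0.83 in TET2M and -0.43 in Mock, with a mean of -0.59 ± 0.10 and the same sign in 3 of 3 lines (adjusted p = 0.135, limma). KRT14 had the most positive, 0.66 in TET2WT, 0.31 in TET2M and 0.48 in Mock, with a mean of 0.48 ± 0.091 and again 1 sign in 3 of 3 lines (adjusted p = 0.146, limma). TENM2 (0.25 ± 0.073) and ELAVL2 (0.23 ± 0.078) had positive differences in TET2M and Mock, while their TET2WT values lie under the low-value level and give no direction there. With low values raised TENM2 was at 0.15, and with the mean of its probe sets ELAVL2 was at 0.062. FDCSP, ZFPM2, HBE1 and MFAP2 had differences between -0.11 and 0.057 with 95% intervals that included 0. The median of the 8 was 0.038, against -0.020 over all genes. SOX11 and KRT14 passed in 1 of 16 alternatives, an intensity trend in the variance, with adjusted p of 0.00900 and 0.0258 in limma.

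**Figure D3:**
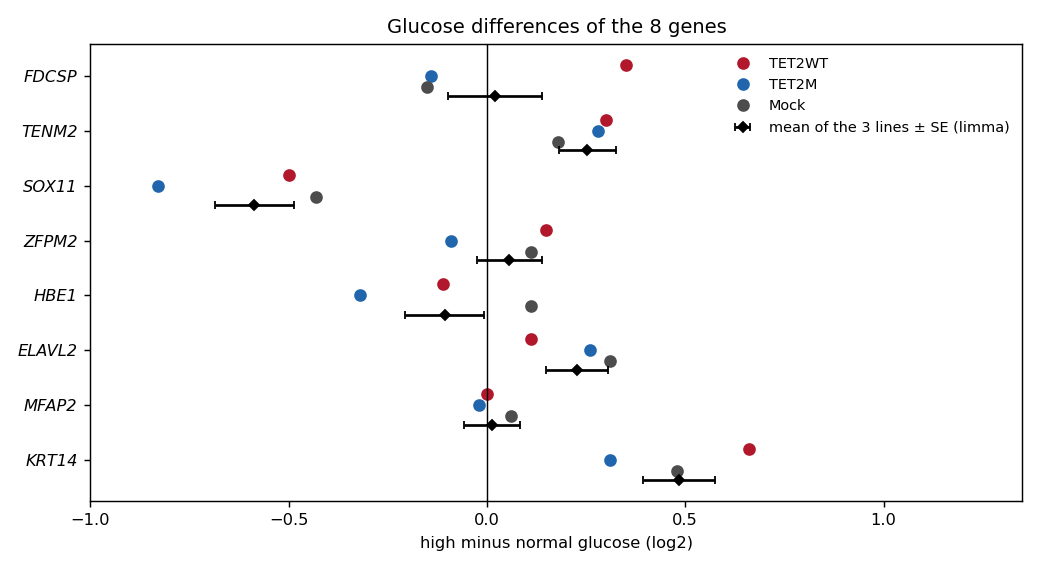
Log2 difference between high and normal glucose (horizontal axis) of the 8 genes in TET2WT, TET2M and Mock, 1 coloured point per line, with the mean over the 3 lines and its standard error from limma as a black diamond. SOX11 lies below 0 and KRT14 above 0 in all 3 lines; the TET2WT points of FDCSP, TENM2, ZFPM2 and ELAVL2 are differences between values under the low-value level.

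The glucose difference in TET2WT was also set against the mean difference of TET2M and Mock. In limma 0 of the 8 genes passed this test and 1 had an unadjusted p under 0.05, where 0 of all genes passed (0%) and 9.18% had an unadjusted p under 0.05. That gene was FDCSP, at 0.50 ± 0.098 (adjusted p = 0.531, limma), whose TET2WT values both lie in the background range. For the others the estimate lay between -0.18 for ELAVL2 and 0.27 for KRT14. This model has 1 residual degree of freedom.

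Genes related to the 8 by family or function were taken from lists. Their differences between TET2WT and the other lines were tested in the same limma fit. Not every listed gene is such a relative: TCAP encodes the muscle protein titin-cap, and MFAP1 and NSRP1 encode general nuclear splicing proteins. They are counted with their lists, and none of them passed against either line. Of 157 relatives and cell type markers tested, 5 passed higher and 9 lower in TET2WT against Mock (8.92%). Of all genes 4.21% passed there, 2.01% higher and 2.2% lower. Against TET2M 4 relatives passed higher and 6 lower (6.37%), and of all genes 3.3% passed, 1.86% higher and 1.43% lower. Their median difference from Mock was 0.025, against -0.010 over all genes. In TET2M against Mock and between the glucose concentrations 0 of the 157 passed in limma. With any 1 array left out, at 1 residual degree of freedom, 0 of the 157 passed against either line, and between 0 and 16 of all genes against Mock; the calls below rest on all 6 arrays.

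Close relatives of the 8 genes mostly had small differences. Among 10 further SOX genes tested, 0 passed between TET2WT and Mock and 1 was lower against TET2M, SOX5 (-0.61, adjusted p = 0.0395, limma). SOX4, the SOXC relative of SOX11, read 7.07 and 7.17 in TET2WT, 7.01 and 6.90 in TET2M, and 7.19 and 7.02 in Mock. Of 18 tested genes of GATA factors, FOG1 and the NuRD complex, which FOG proteins recruit, 1 was lower: GATA3, by -0.58 against Mock (adjusted p = 0.0229, limma) and -0.56 against TET2M (adjusted p = 0.0301, limma). ZFPM1, which encodes FOG1, read 5.16 and 5.24 in TET2WT, 5.35 and 5.58 in TET2M, and 4.89 and 5.38 in Mock. Of 15 tested genes of the ELAV and RNA-binding list, 1 was lower against Mock, the splicing repressor gene PTBP2 (-0.55, adjusted p = 0.0348, limma). ELAVL1, the ubiquitous member of the ELAV family, had a difference of -0.18 that did not pass. Of 13 tested globin and globin-switching genes 0 passed against either line, with HBB at 4.05 and 3.39 in TET2WT, 3.95 and 3.91 in TET2M, and 3.56 and 3.67 in Mock.

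Among keratins 2 of 15 tested were lower in TET2WT against Mock, KRT15 (-0.69, adjusted p = 0.0233, limma), a basal keratin like KRT14, and KRT80 (-0.74, adjusted p = 0.0337, limma). KRT15 itself was low throughout, at 2.80 to 2.89 for TET2WT, 3.19 to 3.38 for TET2M, 3.51 to 3.56 for Mock. Its TET2WT values lie under the array medians (2.96 to 3.03) and the others not far above, so they need not mean expression. Against TET2M 0 of the 15 passed in limma. KRT16 and KRT5 had differences from Mock of -0.070 and 0.055 that did not pass. Of 11 keratinocyte markers 1 passed, in the other direction: S100A2, a calcium-binding protein gene of basal epithelium, was higher by 1.85 against Mock (adjusted p = 9.51e-04, limma) and by 1.64 against TET2M (adjusted p = 0.00187, limma). The summed linear level of the 12 measured keratinocyte markers was 3980 to 4854 in TET2WT, 1736 to 2224 in TET2M and 1732 to 1986 in Mock. S100A2 made up 3191 to 4096 of it in TET2WT, 923 to 1458 in TET2M and 843 to 1201 in Mock. The other 11 markers summed to 758 to 789 in TET2WT, 766 to 814 in TET2M and 785 to 888 in Mock, and the median difference of the 12 between TET2WT and Mock was -0.018.

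The microfibril and elastic fibre list had 3 genes higher and 0 lower in TET2WT against Mock among 23 tested, while MFAP2 read lower. These were EFEMP1 (1.24, adjusted p = 0.0101, limma), the fibulin gene FBLN1 (1.02, adjusted p = 0.00794, limma) and the lysyl oxidase relative LOXL2 (0.87, adjusted p = 0.0137, limma). Against TET2M FBLN1 and LOXL2 were higher and LOXL4 lower (-1.33, adjusted p = 0.0498, limma). Among 10 tested genes of the teneurin list 1 passed, higher in TET2WT: FLRT3, whose product binds latrophilins as teneurins do. FLRT3 was at 0.49 against Mock (adjusted p = 0.0433, limma) and 0.90 against TET2M (adjusted p = 0.00777, limma). The list for FDCSP, built around secreted calcium-binding phosphoproteins, held 23 genes, of which 21 were on the array and 4 were tested. Of these, IBSP, MEPE, SPP1 and SPARC, 1 was lower, the osteopontin gene SPP1. It was at -1.33 against Mock (adjusted p = 0.00997, limma) and -0.91 against TET2M (adjusted p = 0.0333, limma). SPP1 read 2.83 and 2.89 in TET2WT, 3.97 and 3.58 in TET2M, and 4.12 and 4.26 in Mock. Neuronal markers had 1 of 11 lower against Mock, the neurofilament gene NEFL (-0.79, adjusted p = 0.0443, limma). Their summed linear level was 2086 to 2134 in TET2WT, 2194 to 2304 in TET2M and 2222 to 2336 in Mock, and TUBB3 was the brightest at 10.74 to 10.83. Of the 15 measured neuronal markers 8 were above the low-value level on all 6 arrays and 4 below it on all 6, STMN2, DCX, NEFM and MAP2.

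Fibroblast and muscle markers had 1 of 12 lower, the lumican gene LUM (-1.06 against Mock, adjusted p = 0.0137; -1.33 against TET2M, adjusted p = 0.00719, limma). The melanocyte and melanoma list had 2 of 11 lower against Mock, MITF (-0.60, adjusted p = 0.0433, limma) and CSPG4 (-0.77, adjusted p = 0.0422, limma). CSPG4 was also lower against TET2M (-0.84, adjusted p = 0.0380, limma). Of the erythroid markers (7 tested) and the follicular dendritic and B cell markers (5 tested) 0 passed against either line in limma.

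**Figure D4:**
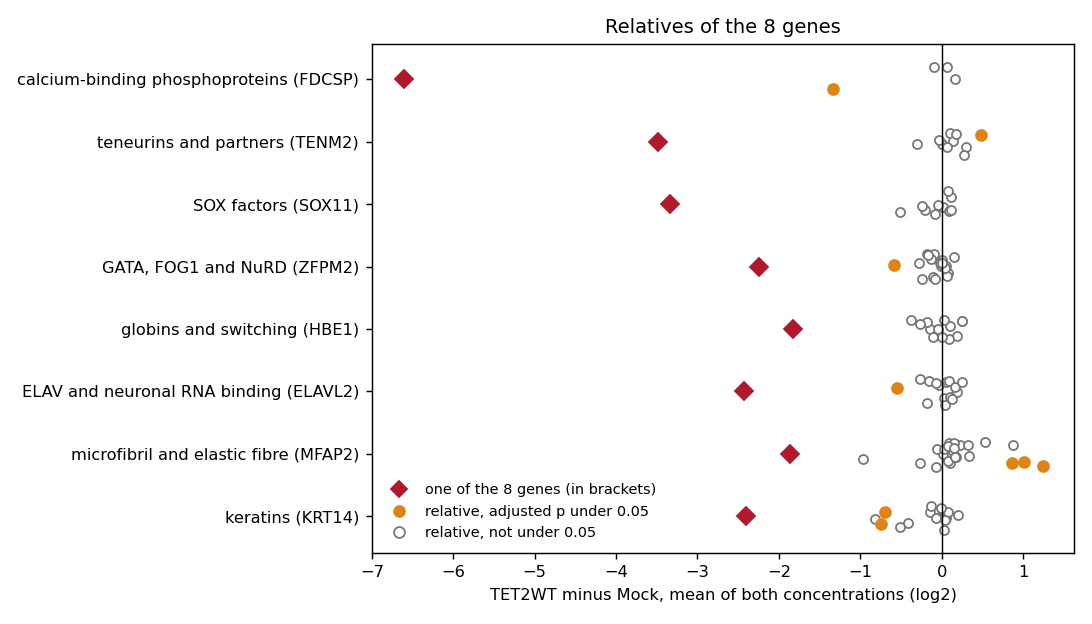
Log2 difference between TET2WT and Mock, averaged over both concentrations (horizontal axis), of the tested genes of 8 lists of relatives, with the gene of the 8 to which each list belongs as a red diamond; orange points passed in limma and open points did not. Each red diamond lies below all of its relatives, which the choice of the 8 genes favours.

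The 8 genes were also set beside their neighbours on the chromosome. Of the 80 nearest tested genes, 5 on each side of each gene, 4 passed between TET2WT and Mock (5%, against 4.21% of all genes), and 3 between TET2WT and TET2M (3.75%, against 3.3% of all genes). The median difference of the neighbours from Mock was -0.035.

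The tested neighbour of FDCSP on the low-coordinate side was SULT1B1, a sulfotransferase gene. It read 3.08 and 2.74 in TET2WT, 2.90 and 2.83 in TET2M, and 4.27 and 4.94 in Mock. It was lower in TET2WT than in Mock (-1.70 ± 0.23, adjusted p = 0.0182, limma), with a difference from TET2M of 0.045 ± 0.23 that did not pass. The difference between TET2M and Mock, -1.74 ± 0.23, did not pass either (adjusted p = 0.102, limma). UTP3 on the other side had a difference from Mock of 0.075. WWC1, which encodes the Hippo pathway protein KIBRA and lies next to TENM2, read 2.86 and 2.83 in TET2WT, 3.30 and 3.43 in TET2M, and 3.38 and 3.45 in Mock. It was lower in TET2WT against Mock (-0.57 ± 0.091, adjusted p = 0.0302, limma) and against TET2M (-0.52 ± 0.091, adjusted p = 0.0440, limma).

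Next to HBE1, the olfactory receptor gene OR51B4 read 2.24 and 2.27 in TET2WT, 3.18 and 3.80 in TET2M, and 2.43 and 2.96 in Mock. Both TET2WT values and the Mock value at high glucose lie under the low-value level, so TET2WT and Mock have no settled order. OR51B4 was lower in TET2WT than in TET2M (-1.24 ± 0.16, adjusted p = 0.0154, limma), while its difference from Mock, -0.44 ± 0.16, did not pass. With low values raised the difference from TET2M was -0.85 ± 0.15 (adjusted p = 0.0455, limma). HBD, the globin gene on the other side, had a difference from TET2M of -0.20 that did not pass. KRT15, described above, is one of the neighbours of KRT14, and KRT9, the nearest on that side, had a difference from Mock of -0.81 ± 0.16 (adjusted p = 0.0518, limma). The third tested gene from SOX11, CMPK2, an interferon-induced nucleotide kinase gene, was higher in TET2WT against Mock (0.72 ± 0.12, adjusted p = 0.0309, limma). Of the nearest tested genes of ZFPM2, ELAVL2 and MFAP2, 0 passed against either line in limma.

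**Figure D5:**
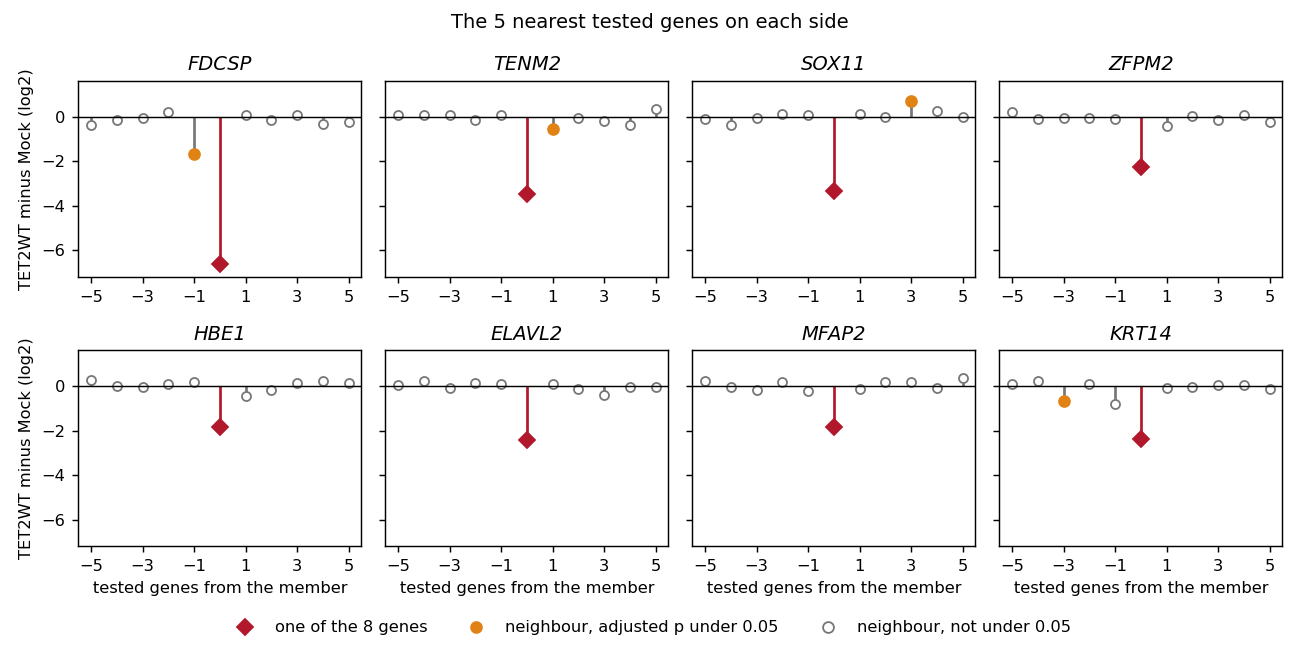
Log2 difference between TET2WT and Mock (vertical axis) of the 5 nearest tested genes on each side of each of the 8 genes, in the gene order of GRCh38.p14 (horizontal axis, in tested genes from the centre), with the gene itself as a red diamond; orange points passed in limma and open points did not. SULT1B1 beside FDCSP, at -1.70, is the lowest of the neighbours.

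Likeness of pattern was measured as the root mean square distance between genes over the 6 arrays, after each gene was centred on its own mean. The closest other genes to FDCSP were the chemokine genes CXCL1 (1.04) and CXCL2 (1.19), on the log2 scale. CXCL1 read 5.13 and 5.83 in TET2WT, 7.22 and 8.06 in TET2M, and 9.59 and 9.89 in Mock, so like FDCSP it had TET2M in the middle. Outside the 8, TENM2 was closest to PTX3 (0.33) and ANO1 (0.54), and SOX11 to IGFBP3 (0.47) and LOC105371703 (0.57). Within the 8, ELAVL2 was at 0.45 from TENM2, and TENM2 at 0.46 from SOX11. The nearest to ZFPM2 outside the 8 were SGCZ (0.93) and LOC105371703 (1.02), while HBE1 was at 0.54. Outside the 8, HBE1 was closest to ADAM23 (0.51) and ADGRL4 (0.52), while ELAVL2 was nearer at 0.47.

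Outside the 8, ELAVL2 was closest to LOC105371703 (0.27) and ANO1 (0.31), and MFAP2 to FKBP1B (0.14) and LOC105371703 (0.14). KRT14 was closest there to SSX1 (0.27) and LOC105371703 (0.34). ELAVL2 and KRT14 were at 0.30 from each other. The arrays and the contrast are the ones that chose the 8 genes, so the distances are a description.

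In the 250 bases before the start site, 10 promoters of 3 of the 8 genes (MFAP2, TENM2 and ELAVL2) were matched in the RefSeq table. Motifs were searched on both strands. TATAAA occurred in the first windows of TENM2 and ELAVL2, 2 of 10, against 10.7% of all promoters. GGGCGG occurred in 5 of 10, the second MFAP2 window and 4 ELAVL2 windows, against 42.6% of all. Of the 10 windows 6 belong to ELAVL2, and 2 of these overlap in a stretch that holds GGGCGG, so they are not separate matches. TGANTCA occurred in the first MFAP2 window (6.57% of all promoters) and the NF-kB consensus in the second (5.21% of all). The number of CpG in these windows ran from 1 to 33.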

How the data were processed

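Total RNA of 6 A2058 cultures was hybridised to Affymetrix arrays. The deposited values are log2 signals per probe set (range 1.56 to 13.78, the base being inferred from this range). Per the submitters' processing notes the authors used Affymetrix Expression Console, with version and summary method not given in the sources used here. Sorted values of different arrays lay within 0.12 of each other, as after a normalization to a common distribution. The number of arrays limits the precision.

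Probe sets naming 1 gene in the platform annotation were used (41091 of 54675), with 41037 symbols updated by gene ID from RefSeq (GRCh38.p14). Probe sets with a mean below the 40th percentile were left out, and each of the 14428 genes kept its brightest one. Of the 12 probe sets of the 8 genes, 10 passed, and all 8 genes were tested. Models were fitted with limma 3.58.1 in R 4.3.3 (lmFit, eBayes; line and glucose as terms; 2 residual and 3.97 prior degrees of freedom; two-sided tests, Benjamini-Hochberg adjustment over all genes, threshold 0.05), and checked on simulated data. Nothing in the labels says that the arrays come from separate cultures of 1 condition. With 1 array per line and concentration, the p-values measure only how differences between lines vary with glucose, or glucose differences with the line. In the line comparisons the 2 concentrations thus stand in for replicates. The p-values hold no spread between cultures or clones of 1 condition. Figures used Python 3.11.15 and matplotlib 3.10.9.

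The 8 genes and the lists were chosen with earlier results of these data known, and the 8 genes were chosen by the differences between TET2WT and the other lines, which are therefore given without a test. Named besides are, per list, up to 4 genes that passed or otherwise up to 2 bright ones. Also named are the nearest tested gene on each side and the 2 genes outside the 8 nearest in pattern. Alternatives covered normalization, the filter, the choice of probe set, the variance trend, low values, the model terms and leaving out arrays.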

Additional observations from a re-analysis of the deposited data

Results flagged for a closer look

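Glucose differences that ran in opposite directions in different lines were looked for among the 8 genes. Each rests on 2 arrays per line, and the TET2WT values of FDCSP and ZFPM2 lie under the low-value level. FDCSP was at 0.35 in TET2WT, against -0.14 in TET2M and -0.15 in Mock. The test of TET2WT against the other lines gave 0.50 ± 0.098 (adjusted p = 0.531, limma). ZFPM2 was at 0.15 in TET2WT, -0.09 in TET2M and 0.11 in Mock. HBE1 was at -0.11 in TET2WT, -0.32 in TET2M and 0.11 in Mock. MFAP2 was at 0 in TET2WT, -0.02 in TET2M and 0.06 in Mock. For ZFPM2, HBE1 and MFAP2 the difference between TET2M and Mock in their response to glucose was not tested.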

How the results depend on the processing

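With an intensity trend in the variance, 2 of the 8 genes passed for glucose in place of 0, and 4 for TET2M against Mock in place of 2 (FDCSP, ZFPM2, TENM2 and HBE1). The same trend gave 23 relatives against Mock in place of 14 and 18 against TET2M in place of 10. Without the glucose term these 2 counts of relatives were 7 and 5, and with the mean of a gene's probe sets 6 relatives passed against TET2M. Leaving out 1 array at a time gave 0 passes of the 8 genes and of the relatives each time, and leaving out the TET2WT arrays, an alternative chosen after seeing the data, gave 0 for TET2M against Mock; both leave 1 residual degree of freedom in place of 2. The count of all genes that passed ran from 0 to 573 for glucose (1 as reported), from 0 to 149 for TET2M against Mock (14), from 0 to 1528 for TET2WT against Mock (608) and from 0 to 1249 for TET2WT against TET2M (476). The split of TET2WT against Mock, 290 higher and 318 lower, was 374 and 305 with quantile and 386 and 306 with cyclic loess normalization. TENM2 passed in TET2M against Mock in 3 of 16 alternatives. With the mean of its probe sets, 1 of them in the background range, HBE1 was at 0.49 in that comparison in place of 0.99. The count of 8 genes at least 2-fold lower in TET2WT was 7 with the mean of a gene's probe sets. The smallest fall of HBE1 was then -0.98. The count stayed at 8 with quantile and cyclic loess normalization and with low values raised. Leaving out an array or testing each probe set on its own could not lower it, since the falls compared were the same or fewer. With low values raised KRT9, a neighbour of KRT14, passed against Mock (adjusted p = 0.0494, limma).

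Differences close to 0 changed sign, with adjusted p above 0.05 throughout. For glucose FDCSP was at -0.0053 with quantile normalization, -0.097 with low values raised, -0.14 without the TET2WT arrays, and between -0.14 and 0.10 with 1 array left out. MFAP2 was at -0.0042 with cyclic loess and between -0.010 and 0.030 with 1 array left out. In TET2M against Mock ELAVL2 lay between -0.11 and 0.018 with 1 array left out. In the test of TET2WT against the other lines' glucose response HBE1 was at 0.047 and MFAP2 at 0.022 with quantile, 0.029 and 0.0064 with cyclic loess normalization, and TENM2 was at -0.23 and ZFPM2 at -0.010 with low values raised. That test was not run with an array left out, since no residual degree of freedom remains. Arrays of different lines were matched only by glucose concentration, through the glucose term, because the labels carry no replicate numbers.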
